A study of Homo sapiens with 18 samples.

Results

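Triple-negative HCC1806 breast cancer cells that had received *PART1* GapmeR 1 were compared directly with those that had received *PART1* GapmeR 2, with no control array in the comparison. HCC1806 is an established human cell line. The cells had been transfected with one of the GapmeRs at 15 nM and collected 48 h later, and 3 samples per GapmeR were hybridised to the Affymetrix Human Gene 2.0 ST array. The series holds 18 arrays in all: 3 each for GapmeR 1, GapmeR 2 and a negative control GapmeR in HCC1806, and the same groups in a further triple-negative line, HCC1395. The array reports a signal for 53617 transcript clusters, its units for a gene or a piece of one. The genes described here are the 16098 transcript clusters for which the platform annotation gives a single gene symbol (14884 distinct symbols), whatever their signal. They comprise 12695 transcript clusters of protein-coding genes, 1595 of lncRNAs, 1236 of miRNA genes and 510 of transcribed pseudogenes, with the rest in smaller RNA classes. Nothing in the sources used here says whether replicates were separate cultures, so p-values cover only the array-to-array spread, part or all of which can be technical. The line's label was checked against marker genes: of 9 basal and squamous epithelial markers 5 were measured under a symbol, with mean log2 signals from 7.62 (*DSG3*) to 11.1 (*EPCAM*), while *ESR1* and *PGR*, the hormone receptor genes, were at 4.87 and 2.53 and 3 endothelial markers at 2.48 to 3.76. *VIM*, *FBN1* and *THY1*, the fibroblast markers measured, were at 4.91, 4.14 and 5.52, the last above the genes' median of 5.16. The only blood cell marker measured, *CD68*, which epithelial cells can also express, was at 9.59.

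A GapmeR is a chemically modified antisense oligonucleotide with a central DNA stretch, flanked by modified nucleotides. When it pairs with an RNA, RNase H recognises the RNA-DNA duplex and cuts the RNA. Because GapmeR 1 and GapmeR 2 were both directed against *PART1*, a lncRNA first described as androgen-regulated in prostate, their direct comparison sets one oligonucleotide against the other without using the control arrays. No comparison with the sequences of the GapmeRs was made here.

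*PART1* itself (chromosome 5) had log2 signals of 4.04, 3.68 and 4.07 on the arrays labelled GapmeR 1, against 4.03, 4.47 and 3.87 on those labelled GapmeR 2. The control arrays read 3.88, 3.69 and 3.94. All groups overlapped, and *PART1* was not lower on either set of GapmeR arrays than on the control arrays. The array signal of the target therefore does not check the labels in this line. By QPCR, the study reported decreased *PART1* after GapmeR treatment in both cell lines. On the arrays, GapmeR 1 minus GapmeR 2 was −0.19 (standard error 0.20, 95% interval −0.65 to 0.26, unadjusted p = 0.355 from limma). These array signals lie close to the median of all transcript clusters, 4.07, and which stretch of *PART1* the probes cover is not known here. Directions below are therefore those of arrays labelled GapmeR 1 relative to arrays labelled GapmeR 2.

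Among the genes that stood furthest apart were 23 transcript clusters of miRNA genes, short hairpin genes whose mature products pair with mRNAs through a seed at bases 2 to 8. Mature sequences for 20 of the 23 were found in RefSeq (GRCh38.p14), 33 in all, and no seed occurred more than once among them. Those of the best known genes are shown, 5′ to 3′ with the seed in capitals, because the lack of a shared seed can be read from them directly. The first 4 belong to genes with higher signal with GapmeR 1 and the last 4 to genes with lower signal.
miR-200c-3p: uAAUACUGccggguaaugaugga
miR-27b-3p: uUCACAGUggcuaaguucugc
miR-197-3p: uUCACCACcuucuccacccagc
miR-29b-3p: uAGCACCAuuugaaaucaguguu
miR-1224-5p: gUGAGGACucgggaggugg
miR-371a-3p: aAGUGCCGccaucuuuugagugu
miR-499a-5p: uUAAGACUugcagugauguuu
miR-494-3p: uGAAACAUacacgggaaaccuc
The array measures total RNA that hybridises to the gene's probes, and does not separate the mature miRNA from its hairpin or from a longer host transcript.

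At an adjusted p under 0.05, limma called 0 of the 16098 genes (0.0%, smallest adjusted p 0.866), the adjustment being that of Benjamini and Hochberg across the 53617 transcript clusters. At an unadjusted p under 0.05, limma gave 561 genes, 3.48% of those tested, of which 279 (1.73%) were higher and 282 (1.75%) were lower with GapmeR 1. Over all transcript clusters the share was 5.16%, 2.55% higher and 2.6% lower. The study's threshold for a GapmeR against the control, a 1.6-fold difference with an unadjusted p under 0.05, was passed by 58 transcript clusters (0.36%), 31 higher (0.193%) and 27 lower (0.168%). Over all transcript clusters it was passed by 1.23%, 0.696% higher and 0.539% lower. Median centring of the arrays turned this split to 40 higher and 18 lower. In 42 of the 58 (0.261% of the genes, against 0.873% of all transcript clusters) the 3 arrays of one GapmeR lay above all 3 of the other. Such separation without regard to fold or p was seen in 1720 genes, 10.7%, the same share as over all transcript clusters (10.7%). With 3 arrays against 3 there are 20 ways to divide the arrays, and the smallest two-sided p an exact permutation test can give for a single gene is 0.1.

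A missing call does not show that the oligonucleotides act alike, so the interval of each difference was also read. For 12635 genes (78.5%) the whole 95% interval lay within 1.6-fold either way. The share was 85.7% in the 8049 brighter genes, those with a mean log2 signal over the 6 arrays at or above the median of 5.16, and 71.2% in the 8049 dimmer genes. The median distance from a difference to the end of its interval was 0.38 on the log2 scale. For the remaining genes the interval reaches or passes a 1.6-fold difference between the GapmeRs.

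**Figure D1:**
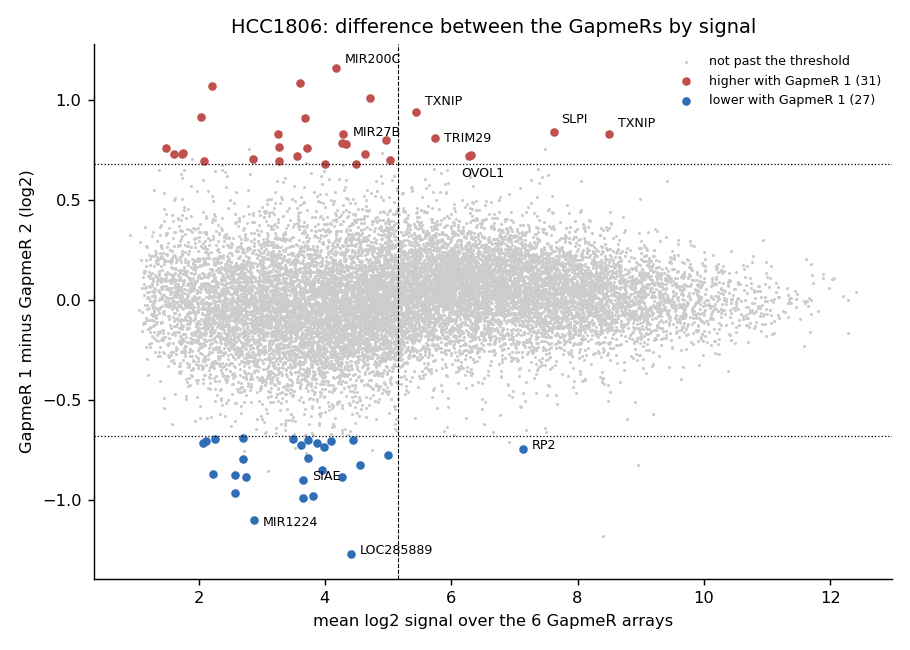
GapmeR 1 minus GapmeR 2 (log2) against mean log2 signal over the 6 GapmeR arrays of HCC1806, 1 point per gene. Dotted lines mark 1.6-fold and the dashed line the median signal, 5.16. Of the 58 genes past the threshold, coloured, 51 are dimmer genes.

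Most of the genes past the threshold were dim. The dimmer genes held 51 of them (0.634% of 8049) and the brighter genes 7 (0.087%), and at an unadjusted p alone the shares were 5.18% and 1.79%. Of those past the threshold, 16 of the 31 higher and 20 of the 27 lower lay under the median signal of all transcript clusters. By class, the 31 higher were 17 protein-coding, 12 miRNA and 2 other genes, and the 27 lower were 11 protein-coding, 11 miRNA and 5 other genes. miRNA genes are 1236 of the 16098 genes and supplied 23 of the 58. Their median signal was 2.96, against 5.66 for protein-coding genes, and the SD of their differences was 0.272, against 0.189. The part that low signal plays in this was not tested.

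Several of these symbols were carried by more than 1 transcript cluster, which did not always agree. The 58 transcript clusters have 57 symbols, and 13 of the symbols have a further 15 transcript clusters that did not pass the threshold. Of these 15, 0 passed an unadjusted p under 0.05 in limma, and 3 had the opposite sign. These further transcript clusters were looked up after the values were seen, and their values stand beside each gene below.

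Of the miRNA genes higher with GapmeR 1, *MIR27B*, whose product is known as a regulator of lipid and angiogenic genes, had log2 signals of 4.89, 4.69 and 4.58 with GapmeR 1, against 4.20, 3.75 and 3.86 with GapmeR 2. The groups did not overlap, and the difference was 0.78 (standard error 0.17, unadjusted p = 0.00173 and adjusted p = 0.907 from limma). *MIR23B*, its neighbour in the same chromosome 9 miRNA cluster, had 5.22, 5.56 and 5.19 with GapmeR 1, against 5.13, 4.80 and 4.76 with GapmeR 2. It too was separated in every array, by 0.43 (standard error 0.17), which is under 1.6-fold.

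*MIR200C*, of the miR-200 family that restrains the mesenchymal factors ZEB1 and ZEB2, gave the greatest positive difference of any gene, 1.16 (standard error 0.43, unadjusted p = 0.0274). Its signals were 4.56, 4.64 and 5.06 with GapmeR 1, against 2.97, 3.12 and 4.70 with GapmeR 2, so GapmeR 2 replicate 3 fell within the range of GapmeR 1. *MIR141*, next to it on chromosome 12, showed the same outlying array, with 4.78, 4.58 and 4.46 with GapmeR 1, against 3.64, 3.67 and 4.81 with GapmeR 2. The control arrays read 3.73, 4.08 and 4.70 for *MIR200C*, overlapping both groups. *MIR200C*, *MIR141*, *MIR23B* and *MIR29B2* are named after their values were seen. The family members encoded on chromosome 1 went the other way and did not pass the test, at −0.18 for *MIR200B*, −0.36 for *MIR200A* and −0.21 for *MIR429*. *ZEB1*, a target of this family, was dim, with 3.16, 3.44 and 3.45 with GapmeR 1 against 3.20, 4.08 and 3.77 with GapmeR 2.

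*MIR197* had 5.42, 5.41 and 5.25 with GapmeR 1, against 4.37, 4.32 and 4.998 with GapmeR 2, a difference of 0.80 (standard error 0.20). Its control arrays, at 5.33, 5.09 and 5.27, stood with GapmeR 1. *MIR29B2*, of the miR-29 family that targets collagen and other matrix mRNAs, had 2.15, 2.00 and 2.16 with GapmeR 1, against 1.19, 1.13 and 1.79 with GapmeR 2. All 6 signals are far under the genes' median of 5.16. *MIR3144*, *MIR4738*, *MIR4755* and *MIR1302-1* differed by 1.09, 1.07, 0.76 and 0.76, each without overlap between the groups.

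Of the miRNA genes lower with GapmeR 1, *MIR1224* had log2 signals of 2.21, 2.25 and 2.52 with GapmeR 1, against 3.71, 3.31 and 3.25 with GapmeR 2. The difference was −1.10 (standard error 0.17, 95% interval −1.50 to −0.70, unadjusted p = 0.000251, adjusted p = 0.866 from limma). The control arrays, at 2.87, 3.43 and 4.02, lay above all 3 GapmeR 1 arrays. A further transcript cluster of *MIR1224* differed by −0.46 (standard error 0.24, unadjusted p = 0.0881 from limma), and its groups overlapped. *MIR371A*, of a cluster known for its expression in embryonic stem cells, had 3.77, 3.95 and 3.78 with GapmeR 1, against 4.76, 4.37 and 5.02 with GapmeR 2. A further transcript cluster carrying the same symbol differed by −0.17 and did not pass the test, so the transcript clusters of this gene disagree in size. *MIR499A*, a miRNA encoded within a myosin gene and known from heart muscle, had 2.25, 2.55 and 2.13 with GapmeR 1, against 3.36, 2.94 and 3.29 with GapmeR 2. Here the control arrays, at 2.40, 2.38 and 2.38, stood with GapmeR 1, and a further transcript cluster of *MIR499A* differed by −0.23. *MIR494*, *MIR1323* and *MIR548X2* differed by −0.85, −0.87 and −0.79, each without overlap, and a further transcript cluster of *MIR548X2* differed by 0.45 in the opposite direction.

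Among the other genes higher with GapmeR 1 were *PMCH*, which encodes the precursor of melanin-concentrating hormone, *ZNF578*, a zinc finger gene, *PCDHB14*, a protocadherin of cell adhesion, *NIPSNAP3B* and *LOC441666*. *PMCH* had 3.63, 3.39 and 4.003 with GapmeR 1, against 2.81, 2.94 and 2.78 with GapmeR 2. The other 4 differed by 0.83 (*ZNF578*), 0.78 (*PCDHB14*), 0.76 (*NIPSNAP3B*) and 0.91 (*LOC441666*).

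Lower with GapmeR 1 were the lncRNAs *LOC285889* and *EOLA2-DT*, the pseudogene *IGBP1P1*, and the protein-coding genes *PTCHD1*, a patched-domain membrane protein gene, *SIAE*, a sialic acid acetylesterase, and *C5AR2*, a receptor of the complement fragment C5a. *LOC285889* had the most negative difference of all genes, −1.27 (standard error 0.35), with 3.26, 4.49 and 3.57 with GapmeR 1 against 4.52, 5.19 and 5.42 with GapmeR 2. Its other transcript cluster differed by −0.08. *SIAE* had the smallest p-value of these, with 3.39, 3.12 and 3.10 with GapmeR 1 against 4.21, 3.99 and 4.10 with GapmeR 2 (difference −0.90, standard error 0.15, unadjusted p = 0.000294 and adjusted p = 0.866 from limma). Its control arrays read 3.05, 4.28 and 4.13 and spanned both groups. A brighter transcript cluster of *SIAE*, with 6.87, 6.86 and 6.90 with GapmeR 1 against 7.04, 6.37 and 6.41 with GapmeR 2, differed by 0.27 in the opposite direction and did not pass the test, so the gene as a whole has no settled direction. *EOLA2-DT*, *PTCHD1*, *IGBP1P1* and *C5AR2* differed by −0.99, −0.98, −0.87 and −0.79, and the other transcript cluster of *PTCHD1* by −0.08.

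**Figure D2:**
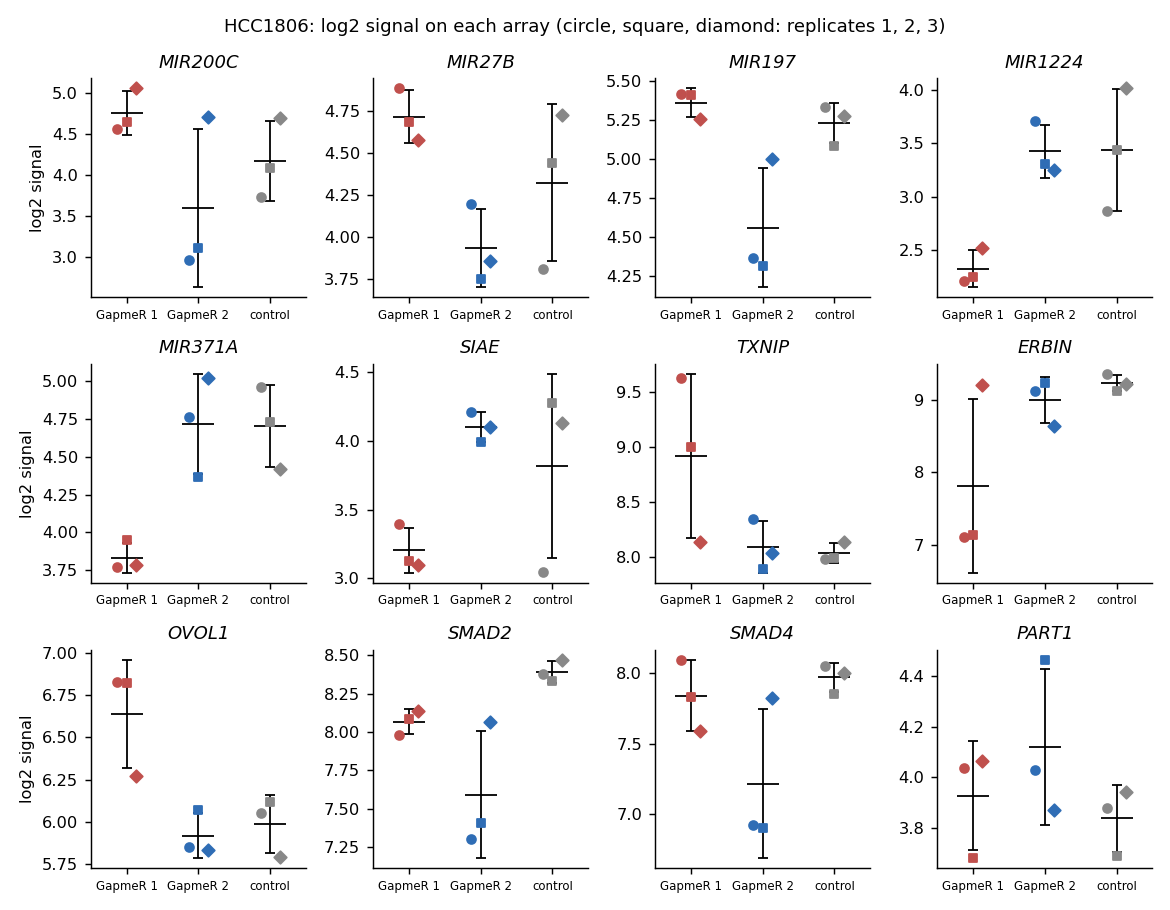
Log2 signal of 12 genes on each HCC1806 array, with GapmeR 1 left of GapmeR 2 and the control arrays at the right. Horizontal bars are means and whiskers SDs of 3 arrays. *MIR27B*, *MIR197*, *MIR1224*, *MIR371A*, *SIAE* and *OVOL1*, each by the transcript cluster past the threshold, show no overlap between the GapmeRs, while GapmeR 1 replicate 3 of *ERBIN* reads 9.20 beside 7.11 and 7.14.

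Among the brighter genes, 7 transcript clusters of 6 genes passed the threshold. *OVOL1*, a transcription factor that favours the epithelial state, had 6.83, 6.82 and 6.27 with GapmeR 1, against 5.85, 6.07 and 5.83 with GapmeR 2, and 6.05, 6.12 and 5.79 on the control arrays. The difference was 0.72 (standard error 0.19, unadjusted p = 0.00511 and adjusted p = 0.911 from limma). A dimmer transcript cluster of *OVOL1* differed by 0.27 and did not pass the test. *SLC38A12* had 6.62, 7.01 and 6.39 with GapmeR 1, against 5.80, 5.87 and 6.17 with GapmeR 2, likewise without overlap. Here the control arrays, at 6.89, 6.86 and 6.46, were close to GapmeR 1.

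The other 5 transcript clusters overlapped between the groups and are named after their values were seen. *TXNIP*, an inhibitor of thioredoxin and of glucose uptake, was measured by a bright and a dimmer transcript cluster. The bright one gave 9.62, 8.99 and 8.14 with GapmeR 1, against 8.35, 7.89 and 8.03 with GapmeR 2, and the dimmer one 6.71, 5.96 and 5.05 with GapmeR 1, against 5.19, 4.87 and 4.84 with GapmeR 2. In both, GapmeR 1 replicate 3 was close to GapmeR 2 and replicate 1 was highest, and without replicate 1 the differences were 0.48 and 0.54 in place of 0.83 and 0.94. *SLPI*, a secreted protease inhibitor of epithelia, had the same order among its GapmeR 1 arrays, with 8.67, 8.13 and 7.36 with GapmeR 1 against 7.06, 6.84 and 7.75 with GapmeR 2, and its difference of 0.84 became 0.53 without GapmeR 1 replicate 1. *TRIM29*, a gene of basal epithelium, had 6.25, 6.06 and 6.13 with GapmeR 1, against 6.06, 4.80 and 5.14 with GapmeR 2, and its difference of 0.81 became 0.54 without GapmeR 2 replicate 2. *RP2*, a GTPase-activating protein of the primary cilium, was the brighter gene with the lower signal, with 6.34, 6.63 and 7.32 with GapmeR 1 against 7.46, 7.82 and 7.24 with GapmeR 2 (difference −0.75, standard error 0.27).

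Some brighter genes with negative differences of about this size or larger did not pass the test, and in these the GapmeR 1 arrays differed among themselves. *ERBIN*, an adaptor that binds the receptor ERBB2, had 7.11, 7.14 and 9.20 with GapmeR 1, against 9.12, 9.23 and 8.64 with GapmeR 2 and 9.36, 9.12 and 9.21 on the control arrays. Its difference was −1.18 (standard error 0.52, unadjusted p = 0.0553 from limma) and became −1.87 without GapmeR 1 replicate 3. *TM9SF2*, an endosomal membrane protein gene, had 7.98, 8.13 and 9.50 with GapmeR 1 against 9.43, 9.63 and 9.03 with GapmeR 2, and *WDR48*, a cofactor of deubiquitinases, had 5.92, 6.39 and 7.37 with GapmeR 1 against 7.42, 7.45 and 6.94 with GapmeR 2. In all of these, replicates 1 and 2 of GapmeR 1 were low and replicate 3 stood with the control arrays. These genes are named after their values were seen.

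The same array was nearest to the control arrays over the brighter genes. GapmeR 1 replicates 1, 2 and 3 had 323, 156 and 35 brighter genes over 1.6-fold from the control mean, against 74, 113 and 64 for GapmeR 2 replicates 1, 2 and 3. Over all genes, Pearson's r between arrays was 0.9855 to 0.988 within GapmeR 1, 0.9883 to 0.9896 within GapmeR 2 and 0.9832 to 0.9903 between the GapmeRs. The range between the GapmeRs thus took in both ranges within them. Leaving out GapmeR 1 replicate 3 gave 69 higher and 97 lower genes past the threshold, and leaving out GapmeR 1 replicate 1 gave 37 and 55.

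Among the brighter genes the differences leaned toward GapmeR 1. At an unadjusted p under 0.05, 122 brighter genes were higher (1.52%) and 22 lower (0.273%), and the median difference was 0.045, against 0.0099 over all 16098 genes. After quantile normalization most of this lean was gone, with 61 higher, 51 lower and a median of 0.0023, while median centring gave 217 higher and 11 lower. Without GapmeR 1 replicate 1 the counts were 45 and 17, and without GapmeR 2 replicate 2 they were 40 and 15. The lean is a shift of a few hundredths of a log2 unit, and its size depended on the scaling.

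Relative to that shift, the difference varied with gene length in these arrays. The 7392 brighter protein-coding genes were divided into 4 bins of nearly equal size by the length of the gene in RefSeq (GRCh38.p14), a division chosen after the values were seen. From the shortest bin to the longest, with median lengths of 5777, 18667, 43591 and 122220 bases, the median of GapmeR 1 minus GapmeR 2 was 0.106, 0.079, 0.027 and −0.034. Quantile normalization gave 0.063, 0.037, −0.017 and −0.078, so the order held while the sign of the third bin changed. At an unadjusted p under 0.05, 53, 27, 24 and 7 genes were higher and 2, 0, 6 and 4 were lower. The order was steepest in GapmeR 1 replicate 1, in which the shortest bin lay 0.209 above the control mean and the longest lay at −0.173, against 0.080 and −0.050 in replicate 2 and 0.038 and −0.012 in replicate 3. In GapmeR 2 replicates 1, 2 and 3 the shortest bin lay at 0.031, −0.015 and 0.003 and the longest at −0.010, −0.021 and −0.098. Without GapmeR 1 replicate 1 the medians were 0.054, 0.048, 0.033 and 0.012. In HCC1395 the same bins had medians of 0.053, 0.027, 0.0051 and −0.039.

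**Figure D3:**
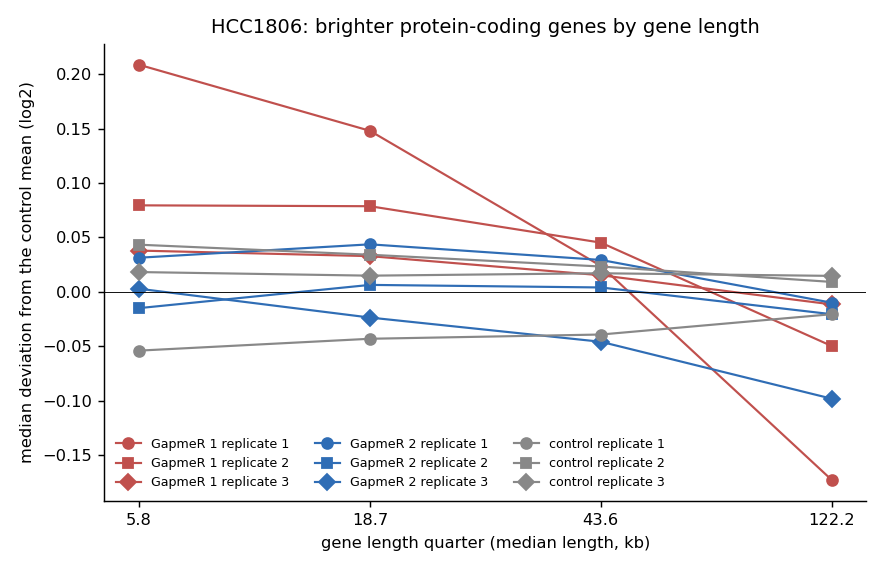
Median deviation from the HCC1806 control mean (log2) in 4 bins of gene length, 1 line per array, over 7392 brighter protein-coding genes. GapmeR 1 replicate 1 runs from 0.209 in the shortest bin to −0.173 in the longest, further than any other array.

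Gene lists showed small differences. Of the 309 distinct genes measured in 32 lists, 240 were brighter genes. At an unadjusted p under 0.05 in limma, 8 of the 309 were higher and 0 lower. The share was 2.59%, against 3.48% of the 16098 genes and 1.79% of the brighter genes. Of the 8, 1 was past 1.6-fold, and 0 passed an adjusted p under 0.05. The 8 were *OVOL1*, *MT1F*, *ATF3*, *SMAD7*, *MCM2*, *MX2*, *BOK* and *PKP1*. Differences were positive in 52% of all genes and 61.1% of the brighter genes, against which the counts of positive members below are to be read. List medians ranged from −0.072 to 0.374, and 22 were positive and 10 negative, or 20 and 12 after quantile normalization and 25 and 7 after median centring.

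The TGF-beta list, of which 5 SMAD genes, *SKIL* and *BMP4* but no receptor were measured, had the highest median, 0.374 over 7 measured genes, 6 of them positive, against 0.045 for brighter genes. It was 0.33 after quantile normalization, and 0.038 in HCC1395. *SMAD7*, the inhibitory SMAD, had 4.79, 5.17 and 4.67 with GapmeR 1, against 4.54, 4.18 and 4.36 with GapmeR 2 (difference 0.52, standard error 0.18), without overlap. *SMAD4*, the common partner of the receptor-activated SMADs, had 8.10, 7.83 and 7.59 with GapmeR 1, against 6.92, 6.90 and 7.83 with GapmeR 2, and 8.05, 7.86 and 8.004 on the control arrays. *SMAD2*, a receptor-activated SMAD, had 7.98, 8.09 and 8.14 with GapmeR 1, against 7.30, 7.41 and 8.07 with GapmeR 2, and 8.38, 8.33 and 8.47 on the control arrays. For both, replicates 1 and 2 of GapmeR 2 were low and replicate 3 was not, and their differences of 0.63 and 0.48 became 0.93 and 0.71 without it. Without GapmeR 2 replicate 1 they were 0.48 and 0.33, and without GapmeR 2 replicate 2 they were 0.47 and 0.38. *SMAD4* and *SMAD2* did not pass the test (unadjusted p = 0.0504 and 0.0562 from limma). *SMAD6*, *SKIL*, *SMAD3* and *BMP4* differed by 0.37, 0.15, 0.08 and −0.15 and did not pass it either.

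All 13 measured genes of the ATF4 and amino acid response had positive differences, with a median of 0.151 (0.115 after quantile normalization, and 0.086 without GapmeR 1 replicate 1). Of these 1 passed an unadjusted p under 0.05: *ATF3*, a stress-induced transcription factor, with 5.82, 5.58 and 5.14 with GapmeR 1 against 4.97, 5.09 and 4.87 with GapmeR 2. *DDIT3*, which encodes CHOP, had 6.09, 6.31 and 5.61 with GapmeR 1 against 5.76, 5.28 and 5.47 with GapmeR 2. *ATF4* itself differed by 0.08. The part that gene length plays in these list medians was not tested.

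Among 16 DNA replication genes the median was 0.137 with 13 positive and 1 past the unadjusted test. *MCM2*, a subunit of the replicative helicase, had 8.14, 7.59 and 7.59 with GapmeR 1, against 7.36, 7.10 and 7.50 with GapmeR 2, and *MCM7*, of the same helicase, differed by 0.30 (standard error 0.15). Mitosis genes, by contrast, had a median of −0.020 over 16 genes with 7 positive, which became 0.016 after median centring. Whether these lists differ from each other was not tested. In the keratins and desmosomes, 14 of 19 were positive with a median of 0.120, among them *PKP1*, a desmosomal plaque protein gene, with 7.58, 7.58 and 7.44 with GapmeR 1 against 7.31, 7.17 and 7.21 with GapmeR 2. *KRT5*, the basal keratin, had 9.47, 9.12 and 8.99 with GapmeR 1 against 9.18, 8.66 and 8.95 with GapmeR 2.

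Of the 50 distinct genes measured in the lists that sense, respond to or handle oligonucleotides, 1 (2%) had an unadjusted p under 0.05 in limma, against 3.48% of all genes and 1.79% of the brighter genes. Of 16 measured sensors of foreign nucleic acid and their adaptors, 0 passed an unadjusted p under 0.05 in limma, with a median of 0.050 and 9 positive. The greatest was *STING1*, the adaptor of cytosolic DNA sensing, at 0.28 (standard error 0.17). Of 13 interferon-stimulated genes, 1 passed: *MX2*, an antiviral GTPase, with 7.38, 7.71 and 7.49 with GapmeR 1 against 7.14, 7.08 and 7.04 with GapmeR 2 (difference 0.44, standard error 0.14). In HCC1395 *MX2* differed by −0.79, in the opposite direction, and the difference between the lines had an adjusted p of 0.978 in limma. Of 10 RNase H and RNA decay genes and of 11 uptake and trafficking genes, 0 passed, with medians of 0.064 and −0.068. *XRN1*, the exonuclease that degrades cleaved RNA, differed by −0.22 and *EGFR*, known to take part in uptake of such oligonucleotides, by −0.14. *MT1F*, a metallothionein, had 6.19, 6.01 and 6.06 with GapmeR 1 against 5.46, 5.13 and 6.06 with GapmeR 2. *BOK*, a BCL2 family gene, differed by 0.40 (standard error 0.16).

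**Figure D4:**
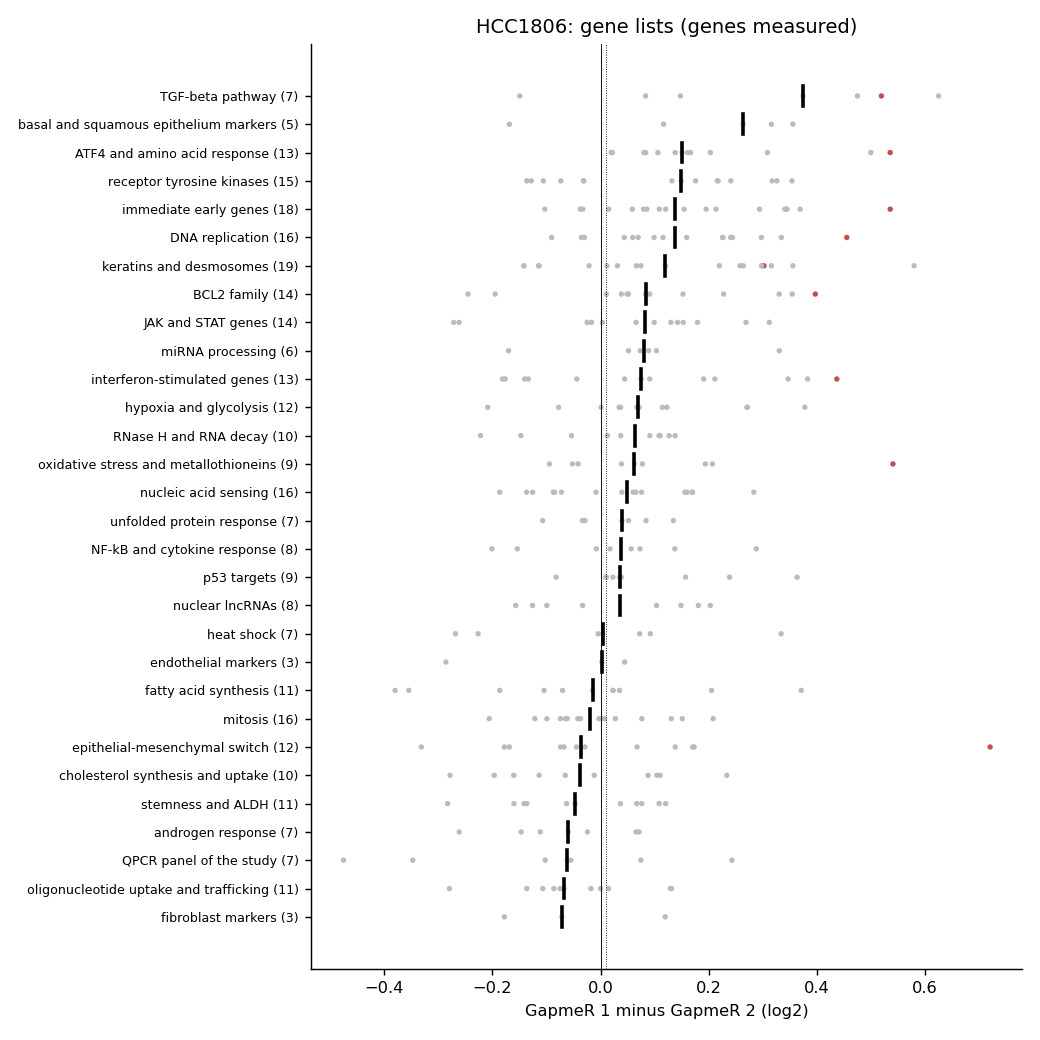
GapmeR 1 minus GapmeR 2 (log2) of each measured gene in the 30 lists with 3 or more measured genes, with the list median as a black bar. Genes at an unadjusted p under 0.05 are red. The dotted line is the median of all genes, 0.0099, and the TGF-beta list has the highest median, 0.374.

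The genes that the study had followed by QPCR gave no call between the GapmeRs. Of 11 genes on that panel 7 were measured under a symbol, and 0 passed an unadjusted p under 0.05 in limma. *GPR89A* and *GPR89B*, near-identical genes of a Golgi pH regulator whose probes may read both, had differences of −0.05 and −0.06, with intervals of −0.37 to 0.26 and −0.37 to 0.25. *GPR89B* had 8.52, 8.78 and 8.73 with GapmeR 1, against 8.76, 8.75 and 8.70 with GapmeR 2 and 7.50, 7.71 and 8.31 on the control arrays. *CDKAL1*, a tRNA-modifying enzyme, had 7.95, 8.09 and 8.85 with GapmeR 1, against 8.14, 8.19 and 8.86 with GapmeR 2 and 9.13, 9.06 and 9.36 on the control arrays. Same-numbered arrays of the GapmeRs had close values, though the interval of its difference, −0.76 to 0.56, is wider than 1.6-fold on the negative side. *SUPT3H*, a transcriptional coactivator subunit gene, and *ZHX2*, a homeobox repressor, differed most, at −0.48 and −0.35, and again GapmeR 1 replicate 3 was apart. Without it the differences were −0.91 and −0.56, and without GapmeR 1 replicate 1 they were −0.15 and −0.22. In HCC1395 *SUPT3H* differed by −0.79 (standard error 0.13, unadjusted p = 0.000334 and adjusted p = 0.807 from limma). In HCC1806 its signals were 3.88, 4.30 and 5.39 with GapmeR 1 against 5.04, 4.94 and 5.01 with GapmeR 2.

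HCC1395 gives the same comparison in other cells on arrays that HCC1806 does not share. Its GapmeR 1 minus GapmeR 2 had 524 genes (3.26%, against 4.49% of all transcript clusters) at an unadjusted p under 0.05 and 0 at an adjusted p under 0.05 in limma. Of the HCC1806 genes past the threshold, 18 of the 31 higher and 15 of the 27 lower had the same sign there. The share with the same sign was 55.4% over all genes, but 50.4% at mean signals from 2 to 3 and 48.8% from 3 to 4. Over all 16098 genes Pearson's r between the differences of the lines was 0.112 (Spearman's rho 0.127), and over the brighter genes it was 0.271 (rho 0.279). By bins of mean signal it was −0.018 from 3 to 4, 0.107 from 5 to 6, 0.397 from 7 to 8 and 0.556 from 10 to 11. These correlations are across genes, which are not independent replicates, and describe the arrays at hand. Without GapmeR 1 replicate 1 of HCC1806, r over all genes was 0.042 and over the brighter genes 0.103. With any other HCC1806 array left out it stayed between 0.079 and 0.138, and between 0.208 and 0.306 in the brighter genes.

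**Figure D5:**
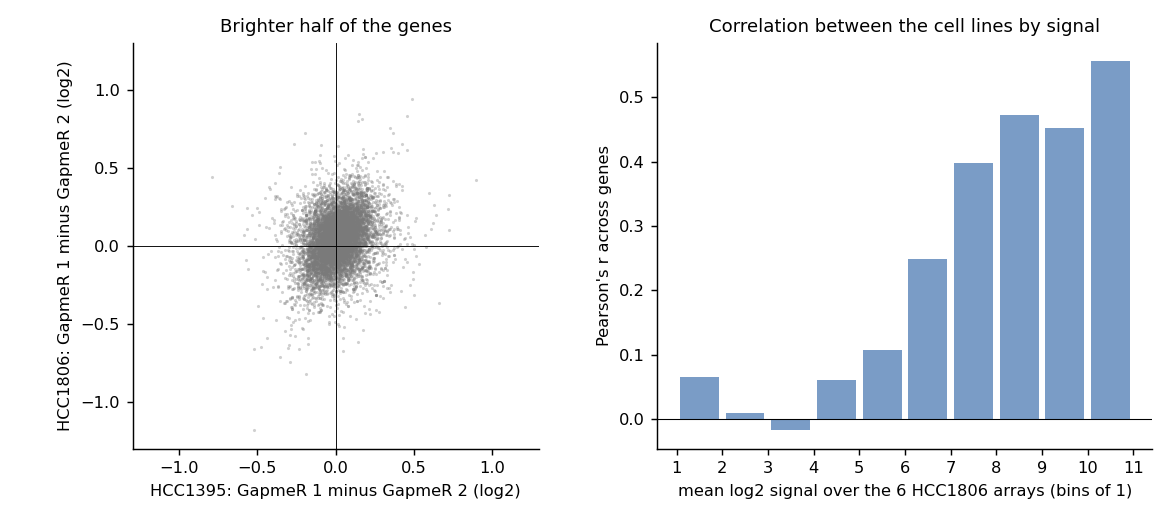
Left, GapmeR 1 minus GapmeR 2 (log2) in HCC1806 against HCC1395, 1 point per brighter gene. Right, Pearson's r between the lines in bins of mean log2 signal, from −0.018 at 3 to 4 to 0.556 at 10 to 11.

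The test of a difference between the lines, an interaction term in limma over all 18 arrays, called 0 genes at an adjusted p under 0.05 (smallest adjusted p 0.973), with 601 genes (3.73%, against 4.91% of all transcript clusters) at an unadjusted p under 0.05. The differences in HCC1395 had the same direction for *SLC38A12* (0.37), both transcript clusters of *TXNIP* (0.45 and 0.49), *RP2* (−0.29) and *SMAD4* (0.35). *OVOL1* and *ATF3* had the opposite one, at −0.20 and −0.15. Of the 23 transcript clusters of miRNA genes past the threshold in HCC1806, 14 had the same sign in HCC1395, against 55.4% of all genes, and 9 the opposite one. The miRNA genes had a median signal of 2.96, and the same-sign share of genes at signals from 2 to 3 was 50.4%. At an unadjusted p under 0.05 in HCC1395, 1 had the same sign, *MIR4632* (−1.06), and 2 the opposite one, *MIR494* (0.58) and *MIR4755* (−0.56). *MIR27B* and *MIR1224* had the same direction there, at 0.23 and −0.55, and *MIR371A* and *MIR499A* the opposite one, at 0.25 and 0.28, and none of these passed the unadjusted test.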

How the data were processed

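RNA from 18 cell line arrays (Affymetrix Human Gene 2.0 ST) was used. The authors deposited log2 signals, which the submitters' processing notes credit to RMA in Expression Console. Its version, the genome build and the probe annotation are not given in the sources used here. RMA includes quantile normalization, which can hide a shift shared by most genes. No normalization or filter was added. Arrays were grouped as labelled.

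GapmeR 1 minus GapmeR 2 was fitted to the 6 HCC1806 GapmeR arrays by limma's lmFit and eBayes (limma 3.58.1, R 4.3.3), with two-sided p-values adjusted by Benjamini-Hochberg across 53617 transcript clusters. The script was tested on simulated data. Intervals are 95%. For lists, the brightest transcript cluster of a gene was taken. Of 33 lists, 32 held a measured gene.

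Named genes were taken from those that passed the adjusted test, were among the 12 highest or 12 lowest (8 and 8 of the brighter genes) past 1.6-fold at an unadjusted p under 0.05 without overlap, had 1 of the 3 smallest p-values of a list, or were *PART1* or on the QPCR panel. Not all of these are described, and 1 of them is not reported here. Others are members of the same list or miRNA family, or were chosen after their values were seen. The members, lists and this rule were chosen with earlier results of these data known. Gene length, signal bins, further gene classes and further transcript clusters of a symbol were added after the values were seen. Alternatives covered the arrays fitted, variance model, scaling, filter, fold threshold, replicate number and each array left out. Figures were made with Python 3.11.15 and matplotlib 3.10.9.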

Additional observations from a re-analysis of the deposited data

How the results depend on the processing

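No alternative gave a gene with a symbol an adjusted p under 0.05 in limma, whether over all arrays, 9 arrays, other variance models, other scalings, brighter transcript clusters, the genes with a symbol alone, the replicate block, or with any 1 array left out. The count of genes past 1.6-fold at an unadjusted p, 58 (31 higher and 27 lower), was 33 (19 and 14) without moderation of the variance and 22 (15 and 7) without dim transcript clusters. With 1 array left out it was 75 to 166 (28 to 69 higher, 46 to 97 lower), and over 1.5 times the full count on leaving out any array but GapmeR 2 replicate 2 (92, 90 and 166 without GapmeR 1 replicates 1, 2 and 3, 108 and 116 without GapmeR 2 replicates 1 and 3). At other fold thresholds it was 442 (210 and 232) at 1.3-fold, 6 (4 and 2) at 2-fold and 561 (279 and 282) with none. The 12635 genes with an interval within 1.6-fold were 10320 to 11563 with 1 array left out. The correlation between the lines, 0.112, was 0.189 without dim transcript clusters, 0.271 in the brighter genes and 0.042 to 0.138 with 1 array left out. The replicate number as a replicate block gave 57 genes past the threshold (30 and 27). Arrays with the same number deviated together with r = 0.149, 0.177 and 0.0929 across genes, each array best with its own number, a hint from the data that the labels do not state. Of 76 named transcript clusters followed through the alternatives, those of *GPR89A* (−0.096 to 0.022 and −0.26 to 0.042), *GPR89B* (−0.11 to 0.018), *BICC1* (−0.092 to 0.37) and *CDKAL1* (−0.38 to 0.13) changed sign with 1 array left out. Some genes outside the 76 that met the naming rule did so too, among them *VIM* (−0.34 to 0.0095), *STEAP4* (−0.25 to 0.013) and *THY1* (−0.25 to 0.073). Of 256 alternatives for list medians, 240 stayed within the spread of the arrays. With 3 arrays a GapmeR, the number of arrays limits the precision.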

Other observations

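Some gene classes not covered above showed small differences, and all of them were chosen after the values were seen. Of 52 cytosolic ribosomal protein genes, 44 had positive differences between GapmeR 1 and GapmeR 2, with a median of 0.136 (0.066 without GapmeR 1 replicate 1), and 1 was higher and 0 lower at an unadjusted p under 0.05 in limma. Of 73 mitochondrial ribosomal protein genes, 57 were positive with a median of 0.073, and 2 were higher and 0 lower. Of 467 zinc finger genes named ZNF, 301 were positive with a median of 0.063, and 19 were higher and 1 lower. Over all genes the median was 0.0099, 52% were positive, and 1.73% were higher and 1.75% lower. Over the brighter genes the median was 0.045, 61.1% were positive, and 1.52% were higher and 0.273% lower. None of these genes passed an adjusted p under 0.05. After quantile normalization the medians, over all transcript clusters of each class, were 0.093, 0.039 and 0.033. The 4 vault RNA transcript clusters, short RNAs of the vault particle, had a median of 0.36, at a median signal of 3.42.

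A transcript cluster with no gene symbol, 16678344, stood further apart than any named gene. Its log2 signals were 2.22, 2.49 and 2.90 with GapmeR 1, against 4.95, 5.21 and 5.10 with GapmeR 2, and 4.92, 4.25 and 4.88 on the control arrays. The difference was −2.55 (standard error 0.19, adjusted p = 0.0655 from limma). With all 9 HCC1806 arrays in the fit the adjusted p was 0.0232, the 1 call of that fit, and a trended, robust variance also called it. In HCC1395 the transcript cluster read 3.24, 3.25 and 3.23 with GapmeR 1, against 4.78, 3.77 and 3.80 with GapmeR 2. That difference was −0.87 (standard error 0.27, unadjusted p = 0.0121 and adjusted p = 0.9995 from limma). What this transcript cluster measures is not known here.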
